A study of Caenorhabditis elegans with 95 samples.

Results

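The lines compared were recombinant intercross advanced inbred lines (RIAILs) of *Caenorhabditis elegans*, sorted by which parental strain's expression they showed at 1 gene of chromosome IV. The marker was *R07C12.2* (WBGene00019932), an annotated pseudogene on the plus strand of chromosome IV, 4148141 to 4150055 in the WBcel235 genome, with 7 exons and 1113 exonic bases. The lines were chosen by these measured values: a line was called N2-like when the marker had at least 5 CPM (counts scaled to 1000000 per library) and CB4856-like when it had under 1 CPM. The rule typed all 85 RIAILs, of 95 libraries in the series: 50 were CB4856-like, 35 were N2-like and 0 were left out.

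The RIAILs descend from crosses between QX1430, an N2 Bristol strain from which genes known to confound such crosses were deleted, and CB4856 from Hawaii. Every library came from worms on doxycycline (Dox), an antibiotic that also blocks mitochondrial translation, at 15 μg/mL. Each RIAIL had 1 library, and the parental strains were N2 with 4 libraries and CB4856 with 6. The N2 libraries are not QX1430, and QX590 is not analysed here. By the study's methods L1 larvae were placed on Dox and harvested at L4, whereas the deposited protocol describes plates as used for lifespan, so the stage rests on the methods.

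In such a panel each line is homozygous, at nearly every place in the genome, for the allele of 1 parent. Genes close together on a chromosome are mostly inherited as a block, so lines sorted at 1 gene are sorted at its neighbours too, and less so with distance as crossovers accumulate. A gene whose level follows the parental type of its own place is said to differ locally, in *cis*, and a gene elsewhere whose level follows that type is said to differ in *trans*. The genomes of N2 and CB4856 differ most on the chromosome arms, where families such as the C-type lectins, F-box proteins and chemoreceptors vary in number and sequence. The reference used for alignment is an N2 genome, so a CB4856 gene that is missing and one whose reads fail to align both give a low count, and which applies was not tested.

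The libraries were even in depth, with 22121202 to 23879871 counts each, and 0 pairs held identical values. The 2 types of line were spread over 7 library series (the letter of the library name), with 30 to 76.9% of the RIAILs of a series being CB4856-like. The types were compared over separate inbred lines, each sequenced once, so a line's own variation between libraries was not measured. Nothing in the sources says that libraries of a parental strain came from separate cultures, so their p-values measure the spread between those libraries, which may be technical.

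The marker split the lines with a wide gap. The lowest N2-like line, QX511, had 64.3 CPM and the highest CB4856-like line, QX519, had 0.427 CPM, with no line between. The N2-like lines ran up to 163 CPM around a median of 90.9, and the N2 libraries had 59.99, 64.8, 91.0 and 96.7 CPM. Of the 50 CB4856-like lines, 30 had no count at all and the 50 together held 48 counts, of which 10 were in QX519. The CB4856 libraries had 0 counts in 5 and 1 count in 1. These values chose the groups and are given as a description.

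**Figure D1:**
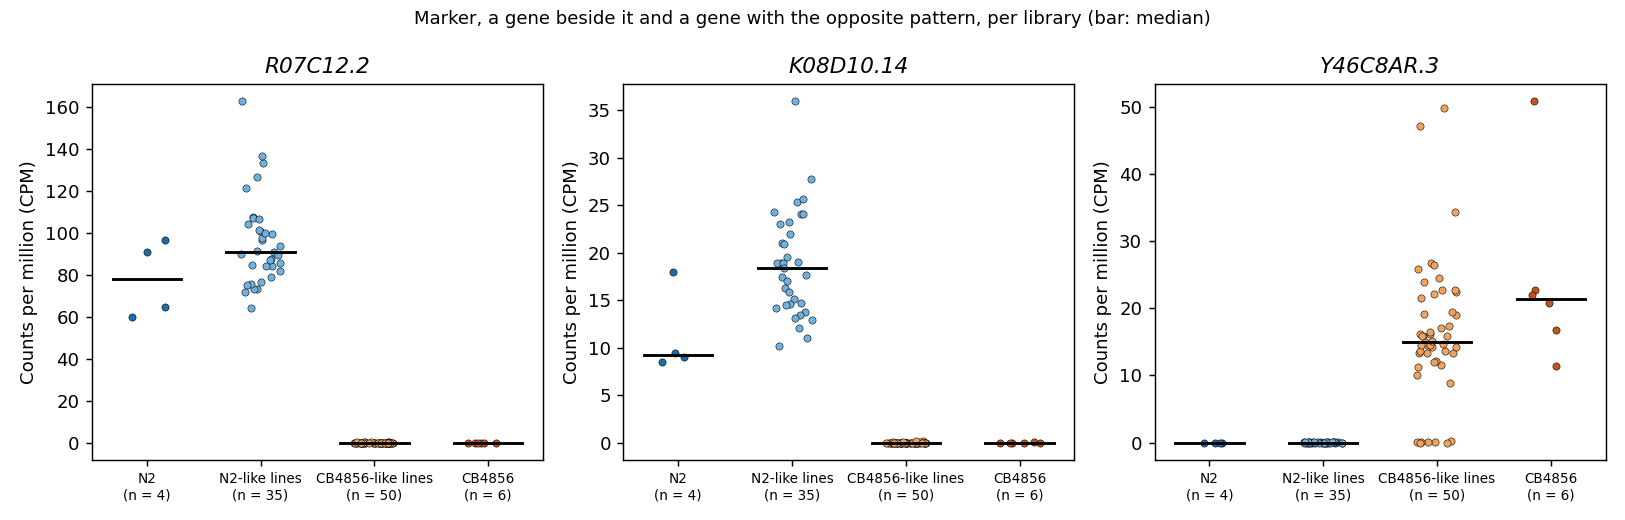
CPM of *R07C12.2* (the marker), *K08D10.14* (6.8 kb away) and *Y46C8AR.3* (178 kb away) in each library of N2, the N2-like lines, the CB4856-like lines and CB4856, with 1 point per library and a bar at the median. The first 2 genes are at or near 0 in every CB4856-like line, and *Y46C8AR.3* is expressed in CB4856 and in 43 of the 50 CB4856-like lines.

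Around the marker an unbroken run of genes was silent, or nearly so, in the CB4856-like lines. Bounded by the outermost genes whose values did not overlap between the types, it reached from *F49F1.7* to *scrm-8*, positions 4123525 to 4166230 of chromosome IV, a span of 42.7 kb with 18 annotated genes. Of these, 16 had at least 20 counts over all libraries, and none of the 16 had a mean above 0.0597 CPM in the CB4856-like lines. Beside the marker, 8 of the 16 had enough counts to be tested. The other 7 had 0 counts in every CB4856-like line and in every CB4856 library. They were low in the N2-like lines too, from 19 counts over all of these (*F49F1.17*) to 564 (*F49F1.8*). They reached 20 counts only through the N2-like and N2 libraries, so their zeros add little. Per kilobase of exon the marker was the most abundant of the run in the N2-like lines, at a mean of 85.9 CPM per kb, followed by *F49F1.7* at 22.2, *K08D10.14* at 15.7 and *scrm-5* at 10.9. In bulk worms, fewer cells of a type and less RNA per cell cannot be told apart.

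*K08D10.14* (4154941 to 4157185, protein-coding) ran from 10.2 to 36.03 CPM in the N2-like lines, with a median of 18.4. The CB4856-like lines ran from 0 to 0.171 CPM, with 45 of 50 at 0. The N2 libraries had 8.53, 9.05, 9.49 and 18.03 CPM and those of CB4856 0 to 0.0429. The 2 types of line did not overlap, and pooled over lines the N2-like level was 1670 times the other (95% exact interval for counting error 976 to 3138, 13 counts in the CB4856-like lines). *F49F1.7* (4123525 to 4125757, protein-coding), at the left end of the run, was the member with most counts left. It had 7.18 to 40.6 CPM in the N2-like lines (median 17.2) and 0 to 0.213 CPM in the CB4856-like lines (median 0.0432). On the log2 scale the CB4856-like over N2-like change was -8.14 (standard error, SE, 0.19), with an adjusted p of 1.65e-56 in edgeR.

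*scrm-5* and *scrm-8*, neighbours at the right end of the run, are annotated as scramblases, membrane proteins that move phospholipids between the leaflets of a bilayer. *scrm-5* (4162421 to 4164480) had 0.815 to 21.3 CPM in the N2-like lines (median 11.06) and 0 to 0.0855 CPM in the CB4856-like lines, 44 of which were at 0. *scrm-8* (4164692 to 4166230) had 0.257 to 11.6 CPM in the N2-like lines (median 6.19), against 2 counts in all 50 CB4856-like lines. Neither gene overlapped between the types, although the N2-like lines themselves differed widely. Of the 8 scramblase genes tested, these were the 2 that fell, and 0 rose. The pseudogenes *K08D10.9* and *R07C12.4* and the protein-coding genes *F49F1.12* and *R07C12.1* completed the run, with 1 to 4 counts each in all 50 CB4856-like lines. For *K08D10.9*, with 3.54 to 10.25 CPM in the N2-like lines, the pooled ratio was 3644 (interval 1008 to 30099). *R07C12.1* lies within *K08D10.10* and *R07C12.4* overlaps its start, all on the plus strand, so reads in the shared bases cannot be assigned to 1 of them.

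With the marker left aside, these 8 genes were the only ones of 15794 tested whose values did not overlap between the types, a share of 0.0507%. Non-overlap set the ends of the run, so this is a description. The same genes had at most 0.0429 CPM as a mean in the 6 CB4856 libraries. No difference in size between the lines and the parental strains was called for any of them (interaction in the edgeR fit, adjusted p 0.353 to 0.973). With counts at or near 0 in CB4856 and the CB4856-like lines, these sizes are poorly measured (SE 0.46 to 4.12). The test therefore does not show that they are equal.

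At its edges other genes with partial or opposite differences adjoined the run. On the left, *mul-1* (4121342 to 4123166), a mucin-like gene, kept part of its signal, with 0.126 to 6.106 CPM in the CB4856-like lines (median 0.582) against 2.36 to 9.48 CPM in the N2-like lines (median 4.90). The fall was -2.84 on the log2 scale (SE 0.18, adjusted p = 3.19e-24), and QX571 alone lay within the N2-like range. *F49F1.5* and *drd-50*, next to it, were not called. On the right, the pseudogene *K08D10.18* was also near 0 in the CB4856-like lines, with 0 to 0.300 CPM and 32 of 50 at 0, but overlapped the N2-like lines at 0.129 to 3.33 CPM. It fell by 5.20 (SE 0.28, adjusted p = 2.62e-28). The adjoining pseudogene *K08D10.5* went the other way, with 0.772 to 13.04 CPM in the CB4856-like lines (median 3.52) and 0.0857 to 1.16 CPM in the N2-like lines (median 0.734), a log2 fold change of 2.40 (SE 0.18, adjusted p = 3.03e-19). The annotations of these 2 pseudogenes overlap, so reads in the shared bases are uncertain. *rnp-2* and *rnp-3*, which encode proteins of spliceosomal snRNPs, lay beyond them at similar levels in both types and were not called. For *rnp-3* the ranges were 32.2 to 48.6 CPM in the N2-like lines and up to 45.7 CPM in the CB4856-like lines.

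Over the whole genome, 272 of 15794 genes tested were called between the types (1.72%, edgeR, adjusted p under 0.05), 183 higher in the CB4856-like lines (1.16%) and 89 lower (0.564%). With scores for molting, sperm and oocyte genes as covariates the count was 1112, and 267 of the 272 were among them. Within 1 Mb of the marker 55 of 317 tested genes were called (17.4%), 29 higher and 26 lower. Of these, 45 were protein-coding, of 293 tested, and 10 were pseudogenes, of 20 tested. The median log2 fold change over all genes was 0.00, as TMM scaling centres it. Without the 11 lines of library series C, which stood apart at several lectins, 182 genes were called in all, 170 of them among the 272, and 49 of the 55 local genes were called.

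**Figure D2:**
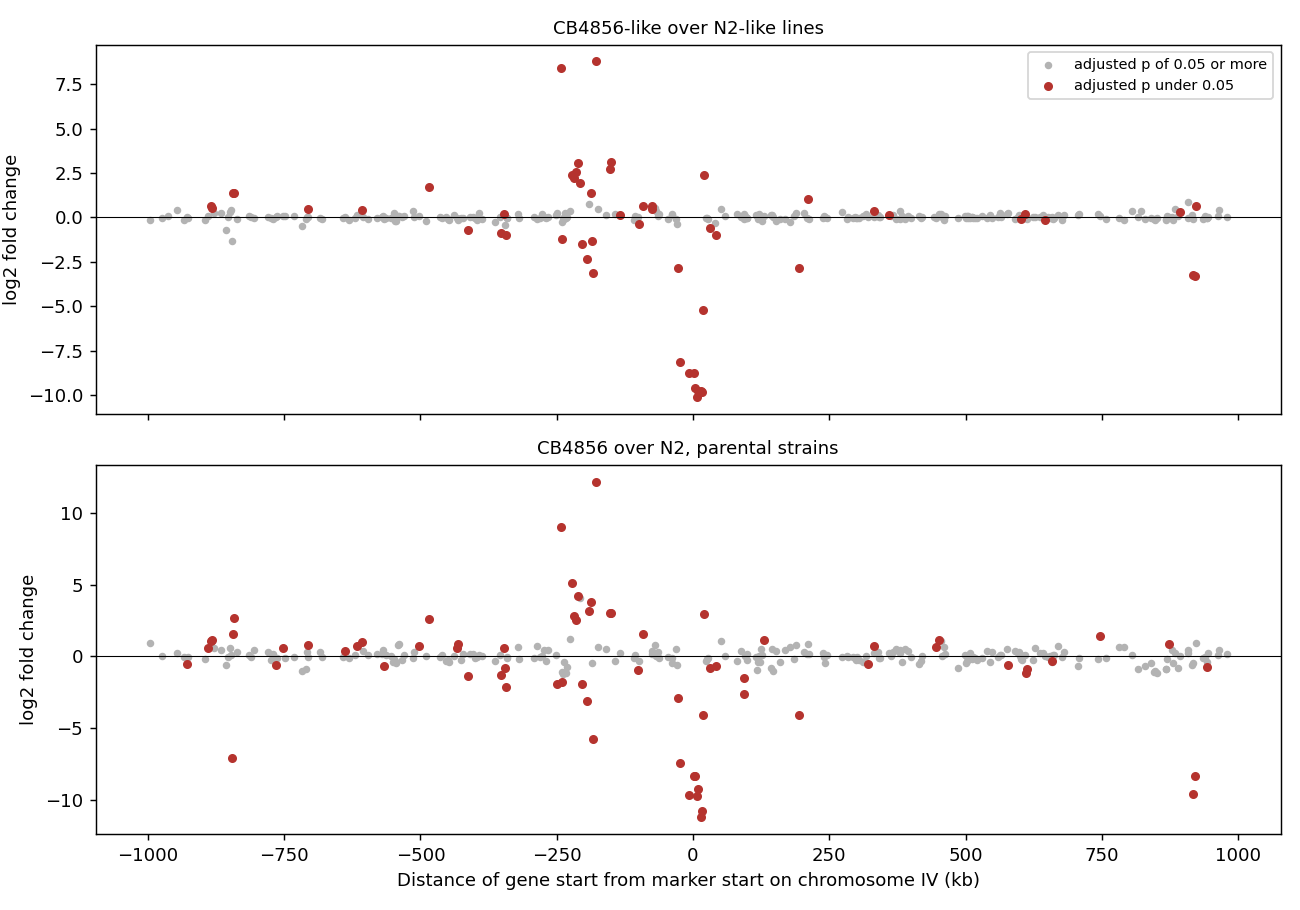
Log2 fold change of each tested gene within 1 Mb of the marker on chromosome IV against the distance of its start from the marker's start, for CB4856-like over N2-like lines (top) and for CB4856 over N2 (bottom), with called genes in red. Both panels show a run of large falls at 0 kb and a group of rises and falls to its left, where the lectin cluster lies 159 to 226 kb away.

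The second dense place was a cluster of C-type lectin genes, 159 to 226 kb to the left of the marker. C-type lectins bind carbohydrates, and in *C. elegans* many are secreted from the intestine and respond to microbes. Of 12 lectins tested in the cluster, 5 rose, 3 fell and 4 were not called, beside 17.4% called of all genes within 1 Mb. From left to right, *clec-68*, *clec-70*, *clec-71* and *clec-174* rose, *clec-72* and *clec-73* fell, *clec-75* rose and *clec-76* fell. Of the 2 other lectins within 1 Mb, *clec-173* rose by 0.53 (adjusted p = 0.000596) and *clec-175* was not called. Beyond 1 Mb and on other chromosomes 3 of 114 lectins were called, all higher in the CB4856-like lines (*clec-3*, *clec-258* and *clec-51*). Of all genes 3.75% were called beyond 1 Mb on chromosome IV and 0.978% on other chromosomes.

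*clec-71* (3937458 to 3939979) rose most among the lectins. It had 0.859 to 25.4 CPM in the N2-like lines (median 2.58) and 3.29 to 222 CPM in the CB4856-like lines (median 19.1). It rose by 3.03 on the log2 scale (SE 0.35, adjusted p = 2.36e-10). Libraries of series C stood apart in both types. The 4 N2-like lines of series C had 12.8 to 25.4 CPM, against at most 7.15 CPM in the other 31, and the 7 CB4856-like lines of series C had 21.4 to 222 CPM, with a median of 154 against 16.2 in the other 43. The CB4856 library of that series had 146 CPM, and the other 5 had 9.53 to 27.8. Within series C only 1 CB4856-like line, QX544, lay in the N2-like range. Without series C *clec-71* rose by 2.93 (SE 0.22, adjusted p = 5.81e-18). *clec-174* and *clec-67* were also high in series C, and what sets these libraries apart was not tested. *clec-70*, beside it, rose by 2.57 (SE 0.31, adjusted p = 2.01e-09), from a median of 2.51 CPM to 17.01. *clec-68* rose by 2.41 (SE 0.21, adjusted p = 2.78e-16) from low levels, with medians of 0.213 and 1.11 CPM. *clec-174* and *clec-75* rose by 1.96 and 1.39, and by 1.39 and 1.2 without series C.

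*clec-73* (3954030 to 3956195) fell. The N2-like lines had 4.59 to 65.6 CPM (median 40.1) and the CB4856-like lines 0 to 75.3 CPM (median 3.71), with overlapping ranges and a log2 fold change of -2.33 (SE 0.29, adjusted p = 6.14e-09). *clec-76* (3965246 to 3969193) fell by 3.11 on the log2 scale (SE 0.45, adjusted p = 3.14e-07), and 24 of the 50 CB4856-like lines had no count of it. *clec-72* fell by 1.49 (SE 0.28, adjusted p = 0.000261), from a median of 20.01 CPM to 3.40. *clec-67*, the lectin of the cluster with the highest N2-like median (89.6 CPM), was not called, at a log2 fold change of 0.38 (adjusted p = 0.218), nor were *clec-74*, *clec-79* and *clec-78*.

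Inside and beside the lectin cluster lay genes with the opposite pattern to the marker. The pseudogene *Y46C8AR.3* (3969931 to 3972616) had 0 to 0.135 CPM in the N2-like lines, 18 of 35 at 0, and a median of 15.1 and a maximum of 49.9 CPM in the CB4856-like lines. It was at 0 in all 4 N2 libraries and at 11.4 to 50.9 CPM in those of CB4856 (median 21.4). Its log2 fold change between the types was 8.78 (SE 0.49, adjusted p = 1.96e-27), from 26 counts in the N2-like lines against 18682. *F56D6.11* (3906113 to 3906493, protein-coding) had 1 count in all N2-like lines and 2606 in the CB4856-like lines, 7 of which were at 0. *F47C12.8* and the pseudogene *F47C12.12*, which both lie within *clec-78*, rose by 3.14 and 2.70.

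Further left fewer genes were called. *Y37E11AL.4*, 485 kb from the marker, rose by 1.72 (SE 0.28, adjusted p = 6.06e-06), from a median of 2.36 CPM to 11.4. *idpp-12* and *W08E12.2*, 844 and 842 kb away, rose by 1.35 and 1.39. *osm-3* (3796300 to 3801052) encodes the kinesin that carries cargo along the distal part of sensory cilia. It had 0.675 to 5.49 CPM in the N2-like lines (median 3.80) and 0.632 to 5.05 CPM in the CB4856-like lines (median 1.6004), a log2 fold change of -0.90 (SE 0.13, adjusted p = 7.09e-07). *nape-2*, an enzyme that releases N-acylethanolamines from membrane lipids, fell by 0.71 on the log2 scale (SE 0.10, adjusted p = 8.19e-08). Both genes fell in CB4856 against N2 as well, by 1.30 and 1.36. *osm-3* overlaps *algn-14*, a homologue of a subunit in N-glycan synthesis, which was higher by 0.20 (adjusted p = 0.0212).

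*hlh-30*, the TFEB homologue that controls autophagy and lysosome genes and is needed for several forms of long life, lies 133 kb to the left of the marker. It had 107 to 160 CPM in the N2-like lines (median 127) and 115 to 160 CPM in the CB4856-like lines (median 137). The ranges were nearly the same, yet the fold change of 0.12 on the log2 scale (SE 0.03) passed the threshold (adjusted p = 0.0245). Without library series C it was 0.10 and was not called (adjusted p = 0.122). Between CB4856 and N2 it was 0.25 and was not called (adjusted p = 0.13). *wrt-5*, a hedgehog-related gene, fell by 0.39 (SE 0.06, adjusted p = 4.37e-06), from a median of 17.7 CPM to 12.98.

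To the right of the marker fewer genes differed. *tsen-34* (4178457 to 4179537), a subunit of the endonuclease that splices tRNAs, had 3.91 to 8.01 CPM in the N2-like lines (median 5.83) and 2.71 to 5.39 CPM in the CB4856-like lines (median 3.73). It fell by 0.60 on the log2 scale (SE 0.05, adjusted p = 7.46e-16). *oac-52* (4342262 to 4346612), of the acyltransferase family, fell by 2.85 (SE 0.28, adjusted p = 2.8e-13), from a median of 2.26 CPM to 0.173. The transcription factor gene *eor-1* fell by 0.17 (adjusted p = 0.00244). Near the right end of the 1 Mb window, the major sperm protein gene *msp-53* and *rmd-6*, a microtubule-associated protein, fell by 3.22 and 3.30 (adjusted p = 0.000103 and 8.65e-08). Major sperm protein genes are nearly identical to each other, so counts of *msp-53* and *msp-19* are uncertain.

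How far along the chromosome a line kept the type of the marker was read from other genes that separate the parental strains. A gene was used when the lowest library of 1 strain was at 5 CPM or more and at least 3-fold above the highest of the other, and each line was typed at the geometric mean of those 2 values. At *K08D10.14* 100% of lines had the marker's type. The share was 91.8% at *Y46C8AR.3*, 178 kb to the left, 81.2% at *Y37E11AL.4*, 485 kb to the left, and 77.6% at *Y94H6A.10*, 1438 kb to the left. To the right it was 91.8% at *msp-19*, 1112 kb away, 80% at *nspd-7*, 6121 kb away, 63.5% at *irg-6*, 8765 kb away, and 52.9% at *C35D6.5*, 12219 kb away. Over 118 such genes on other chromosomes the median was 50.6% (38.8 to 63.5%). With the marker's own thresholds of 5 and 1 CPM, 68 genes on other chromosomes gave a median of 50% (39.1 to 63.6%). At *clec-71*, 211 kb to the left, the share was 88.2% of all lines and 91.9% of the 74 lines outside library series C. At *msp-19*, a sperm gene, a library poor in sperm transcripts can be typed as CB4856 whatever the line carries.

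**Figure D3:**
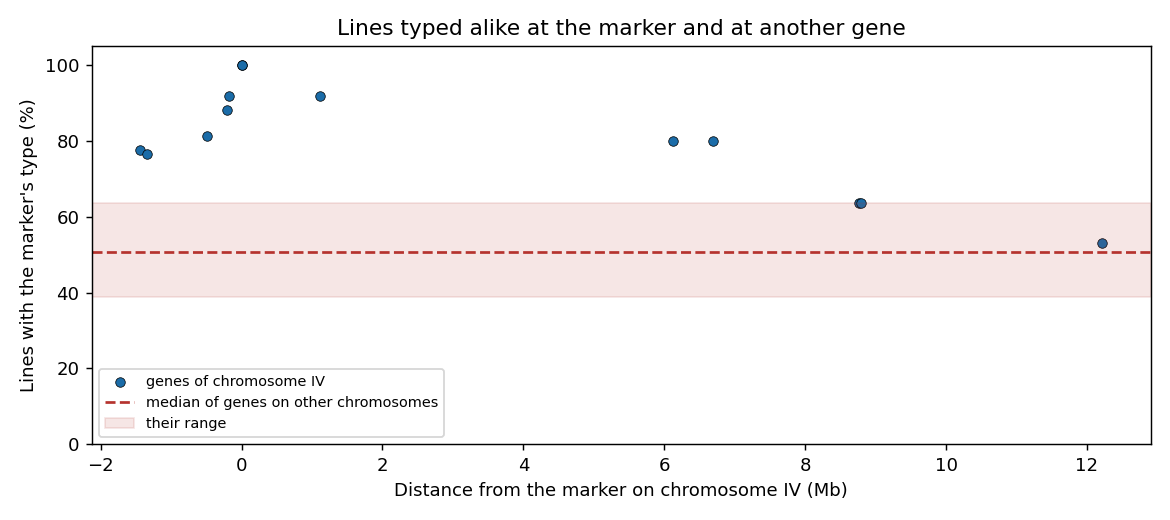
Share of the 85 lines (%) with the marker's parental type at other genes of chromosome IV, against distance from the marker in Mb, with 1 point per gene, and the median (dashed) and range (band) of 118 genes on other chromosomes. The share is 100% at 6.8 kb and 91.8% at both *Y46C8AR.3* and *msp-19*, and it enters the range of the other chromosomes at *irg-6*.

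The type changed between the marker and the lectin cluster in 7 lines. QX510, QX512, QX519, QX527, QX536, QX544 and QX573 were CB4856-like at the marker and had at most 0.179 CPM of *Y46C8AR.3*, and no N2-like line had the CB4856 type there. At *msp-19*, 3 CB4856-like lines had the N2 type and 4 N2-like lines the CB4856 type, and 72 of 85 lines had the marker's type at both genes. The type there is uncertain where sperm transcripts are few. QX552, among the 4, had a sperm score (mean z score of sperm genes) of -3.31, the lowest of the N2-like lines. It had the N2 type at *R13.5*, 6686 kb to the right. QX560, a CB4856-like line, had a sperm score of -3.82 and the N2 type at *R13.5*. QX519 had the N2 type on both sides and was also the CB4856-like line with most marker counts.

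In these 7 lines genes on the 2 sides of the change took different values. They were set apart by *Y46C8AR.3*, so the values are a description. *clec-73* had 8.44 to 75.3 CPM (median 32.7) in the 7 lines, against 0 to 7.79 CPM (median 3.48) in the other 43 CB4856-like lines and a median of 40.1 CPM in the N2-like lines. *osm-3* had 2.86 to 5.05 CPM (median 3.44) in the 7 lines and 0.632 to 3.30 CPM (median 1.53) in the 43. *F56D6.11* had at most 0.0427 CPM in the 7 lines and a median of 2.08 CPM in the 43. For all 3 genes the 7 lines sat with the N2-like lines.

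At *mul-1* and *tsen-34*, closer to the marker, the same 7 lines sat with the CB4856-like lines. *mul-1* had 0.126 to 0.816 CPM in the 7 (median 0.402) against a median of 0.601 CPM in the 43 and 4.90 CPM in the N2-like lines. *tsen-34* had a median of 3.58 CPM in the 7 and 3.74 CPM in the 43. Between the lectins and *mul-1* the 7 lines had no common place. *hlh-30* had a median of 136 CPM in the 7, close to 137 in the 43, against 127 in the N2-like lines. *W03D2.9* had a median of 6.54 CPM in the 7, above both 4.49 in the 43 and 3.46 in the N2-like lines. At *wrt-5* and *W03D2.6* the 7 lines were intermediate in median. *wrt-5*, 98.1 kb to the left, had medians of 12.9 CPM in the 43, 15.9 CPM in the 7 and 17.7 CPM in the N2-like lines. *W03D2.6*, 91.6 kb to the left, had a median of 22.1 CPM in the 7, between 17.2 in the N2-like lines and 27.4 in the 43. *clec-71* had 3.29 to 6.36 CPM in 6 of the 7 lines, below the lowest of the 43 at 10.98 CPM, and 21.4 CPM in QX544, a line of library series C, where the N2-like lines had 12.8 to 25.4 CPM.

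**Figure D4:**
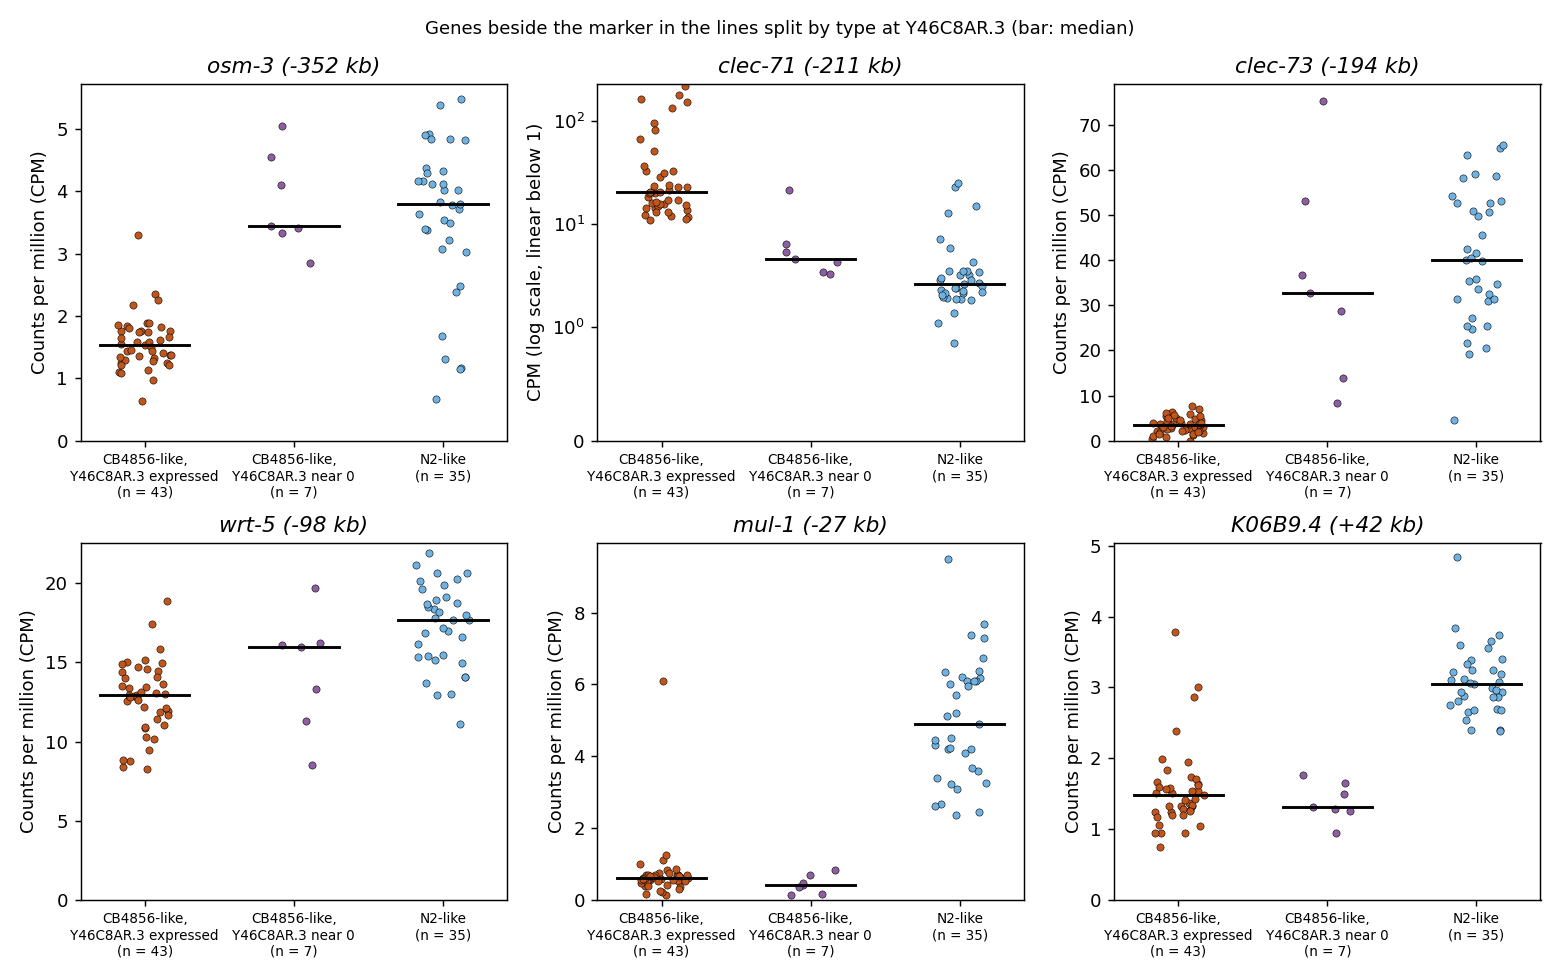
CPM of 6 genes near the marker in the 43 CB4856-like lines that express *Y46C8AR.3*, the 7 CB4856-like lines at or near 0 for it and the 35 N2-like lines, with 1 point per line, a bar at the median and the distance from the marker above each panel. *osm-3* and *clec-73* are at N2-like levels in the 7 lines, and *mul-1* and *K06B9.4* are at the levels of the other CB4856-like lines.

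On the right side, *rmd-6*, near *msp-19*, followed the type at *msp-19* and not that of the marker. It had 1.66 to 1.71 CPM in the 3 CB4856-like lines with the N2 type there and at most 0.0435 CPM in the other 47. It had at most 0.0857 CPM in the 4 N2-like lines with the CB4856 type and 0.486 to 2.31 CPM in the other 31. These 4 include QX552, whose type at *msp-19* is uncertain because its sperm transcripts were few. *oac-52*, only 194 kb from the marker, was high in QX490 and QX565 (4.0 and 3.11 CPM), the next CB4856-like line being at 0.602 CPM. It was at 0.0434 CPM in the N2-like line QX515, the next N2-like line being at 1.12 CPM. All 3 lines were among the 7 with another type at *msp-19* than at the marker. In the other 4 *oac-52* was at the level of the marker's type, with 2.98, 1.501 and 3.33 CPM in the N2-like lines QX492, QX552 and QX591 and 0.0854 CPM in QX519.

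Beyond 1 Mb on chromosome IV, 89 of 2376 tested genes were called (3.75%), 54 higher and 35 lower in the CB4856-like lines. Without library series C, 57 were called, and with stage scores as covariates 294. The share fell with distance. It was 48.9% of 47 genes within 0.25 Mb to the left and 24.5% of 49 genes within 0.25 Mb to the right, 5.31% of 1130 genes at 1 to 5 Mb and 2.33% of 1246 genes further off. At 8 to 10 Mb it was 0.627%. On the left, 15 of 125 genes were called at 1 to 2 Mb (12%) and 0 of 116 at 2 to 3 Mb. On the other chromosomes together 128 of 13083 genes were called (0.978%).

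**Figure D5:**
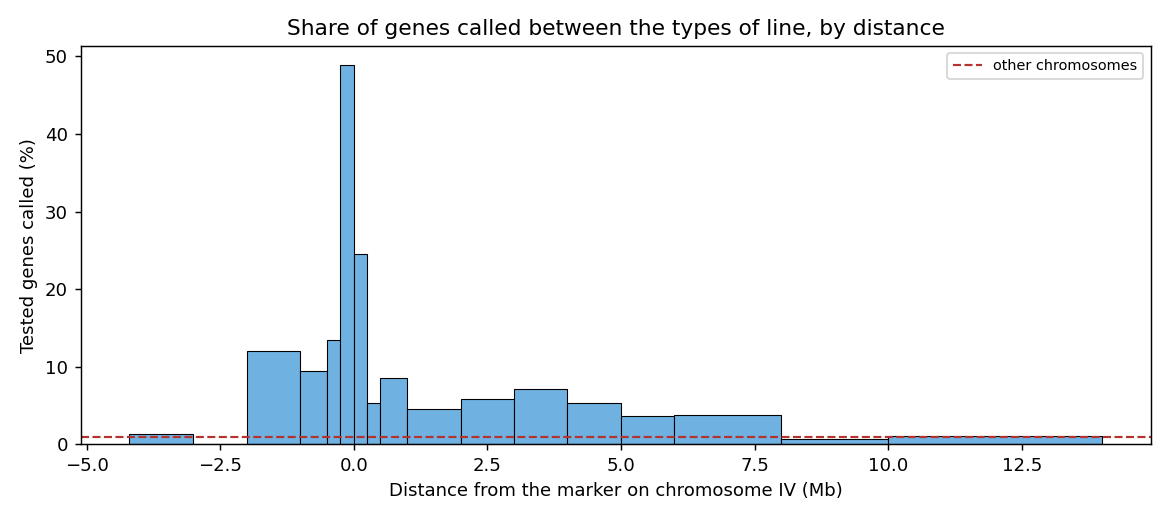
Share of tested genes called between the types of line (%), in bins of distance from the marker on chromosome IV (Mb, bar width as bin width), with the share on the other chromosomes, 0.978%, as a dashed line. The tallest bar, 48.9%, is the bin from -0.25 to 0 Mb, and the bins at 8 to 10 and 10 to 14 Mb lie at 0.627% and 1.06%.

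The 5 genes with the smallest p beyond 1 Mb on chromosome IV lay 1.5 to 3.4 Mb to the right. *C01B10.1* (6613918 to 6618498, a pseudogene) had 35.6 to 191 CPM in the N2-like lines (median 125) and 30.3 to 159 CPM in the CB4856-like lines (median 61.7). It fell by 0.78 on the log2 scale (SE 0.11, adjusted p = 1.17e-07), with 81.1, 83.7, 107 and 178 CPM in N2 and 48.1 to 82.6 CPM in CB4856. *srd-8* (5643358 to 5645614), of a chemoreceptor family, rose by 2.01 (SE 0.28, adjusted p = 2.05e-07), from a median of 0.387 CPM to 2.77. *C34D4.10* rose by 1.47, from a median of 4.05 CPM to 23.8, *R05G6.5* rose by 0.74, and *Y40C5A.4* fell by 0.69. All 5 moved the same way, and were called, between CB4856 and N2.

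The nearest typed gene to each of these 5 was *msp-19*, 0.383 to 2.25 Mb away. With the type at *msp-19* in the fit none was called for the marker, with log2 fold changes of -0.22 to 0.15 (adjusted p = 1.00 for each). *C34D4.10* had a mean of 19.8 CPM in the 4 N2-like lines with the CB4856 type at *msp-19*, against 6.69 CPM in the other 31. It had 5.56 CPM in the 3 CB4856-like lines with the N2 type, against 23.4 CPM in the other 47. This fit was chosen after the data were seen, and 3 and 4 discordant lines are few. The types of QX552, among the 4, and of QX560 at *msp-19* are also uncertain, as both were poor in sperm transcripts.

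Directions in the parental strains were shared most often near the marker. Between CB4856 and N2, 2525 of 15718 genes were called (16.1%), 1381 higher (8.79%) and 1144 lower (7.28%) in CB4856. The count was 4604 without N2 replicate 1 and 1570 without N2 replicate 3. Over the 8 libraries whose titles carry a shared batch number it was 1652 with batch as a block, and 1566 without the block. Within 1 Mb of the marker, 54 of the 55 genes called between the types had the parental direction and 41 were called in the parents too. Starting from the 70 local genes called between the parents, 87.1% had the same direction in the lines and 58.6% were called there. At 1 to 5 Mb 68.8% had the same direction and 21.4% were called, and beyond 5 Mb 60.4% and 6.1%. On the other chromosomes 2077 parental calls had the same direction in 52% and were called in 1.44%.

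For genes called between the parents the median size was 1.57 on the log2 scale within 1 Mb, and the median difference between the types, taken in the parental direction, was 0.75. It was 0.08 at 1 to 5 Mb and 0.01 on the other chromosomes, where the parental median size was 0.99. The test of the difference itself called 30 of 317 local genes (9.46%) and 1716 of 13083 genes on other chromosomes (13.1%). Over the larger set of 17057 genes that this fit tested, it called 2111 (12.4%). Among the lectins, *clec-68* rose by 5.08 between the parents, more than between the types (interaction -2.63, adjusted p = 0.014), and *clec-75* by 3.82 (interaction -2.38, adjusted p = 0.017).

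Most of the genes called on other chromosomes differed by small amounts. Of the 128 called, 100 were higher and 28 lower in the CB4856-like lines, 83 changed by under 0.5 on the log2 scale and 15 by 1 or more. The count was 211 with the library series as a factor, 720 with stage scores as covariates and 75 without library series C. By chromosome, 50 were on V (1.55% of those tested, 45 higher and 5 lower), 27 on II, 19 on III, 18 on X, 14 on I and 0 of 13 on the mitochondrial chromosome. In the parental strains 102 of the 127 that could be tested had the same direction and 30 were called.

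The pseudogene *C18H2.2* (chromosome III, 7679293 to 7682292) had the smallest p among them. It had 2.03 to 5.27 CPM in the N2-like lines (median 3.46) and 1.88 to 8.72 CPM in the CB4856-like lines (median 5.13), a log2 fold change of 0.59 (SE 0.08, adjusted p = 3.69e-08). The N2 libraries had 2.66, 2.82, 2.95 and 3.12 CPM and those of CB4856 5.11 to 7.53 (median 5.87). With the type at *C06E1.11*, 0.936 Mb away on the same chromosome, in the fit it was 0.60. *plp-2* (X, 14982140 to 14982804), which encodes a PUR-alpha-like nucleic acid binding protein, rose by 1.58 (SE 0.30, adjusted p = 0.000271), from 0 to 4.45 CPM (median 0.308) to 0.130 to 4.54 CPM (median 3.02). Most N2-like lines were under 1 CPM, as was N2 (0.217, 0.262, 0.555 and 0.675 CPM), while CB4856 had 2.57 to 3.41 CPM. The N2-like lines QX492, QX515, QX554, QX570, QX572, QX577, QX587 and QX591 had 2.35 to 4.45 CPM. The CB4856-like lines QX490, QX497, QX519, QX560 and QX565 had 0.130 to 0.387 CPM. Each had another type than the marker's at *msp-19*, *nspd-7* or *R13.5*, to its right. So did QX508, QX511, QX528, QX552, QX589 and QX594, which kept the level of the marker's type. For QX552 this rests on *msp-19* and *nspd-7*, in a library poor in sperm transcripts, and at *R13.5* it had the marker's type. Which place *plp-2* follows was not tested.

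The adjoining pseudogenes *Y19D10B.4* and *Y19D10B.1* (V, 2304355 to 2313809) had the largest fold changes of the 10 distant genes named, 2.83 and 2.72 (SEs 0.45 and 0.51). *Y19D10B.4* had 0 to 3.97 CPM in the N2-like lines (median 0.127) and 0.0426 to 15.8 CPM in the CB4856-like lines (median 1.10). *C15B12.8* (X) rose by 0.90, *C36A4.11* (III) by 0.72, *srj-14* (V), a chemoreceptor gene, by 0.43 and *F20A1.6* (V) by 0.34. The histone gene *his-40* (X) fell by 0.61, and reads of near-identical histone copies make it uncertain. All 10 stayed called, in the same direction, with the type at the nearest typed gene of their own chromosome in the fit. That gene lay 0.0072 Mb (*Y19D10B.1*) to 4.39 Mb (*C15B12.8*) away. Its CB4856 type was about as frequent in CB4856-like as in N2-like lines, as with 52 and 51.4% for *C15B12.8*. The shares were furthest apart for *C36A4.11* (70 and 57.1%). This fit could therefore change the marker's difference little, and staying called says little.

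Among genes of peptide signalling, families picked after these values were seen, the few that were called were all higher in the CB4856-like lines, against 1.16% called higher over all genes. FMRFamide-like neuropeptides act on receptors of neurons and muscle, and insulin-related peptides on the DAF-2 receptor, which sets growth, dauer entry and lifespan. Of 30 *flp* genes tested, 4 rose (*flp-4*, *flp-5*, *flp-13* and *flp-22*) and 0 fell, with a median log2 fold change of 0.13, against 0.00 over all genes. Of 24 *ins* genes 3 rose (*ins-12*, *ins-18* and *ins-28*), with a median of 0.16, and of 66 *nlp* genes 2 rose, with a median of 0.10. Without library series C, 1 *flp*, 2 *ins* and 1 *nlp* gene were called. *flp-4* had 8.39 to 13.6 CPM in the N2-like lines (median 11.14) and 9.63 to 18.99 CPM in the CB4856-like lines (median 12.7). Its log2 fold change was 0.29 (SE 0.05, adjusted p = 0.000152), and the types overlapped widely. Between CB4856 and N2 it was 0.12 (adjusted p = 0.647).

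Of other families few or no members were called, read against 1.16% higher and 0.564% lower over all genes. UDP-glucuronosyltransferases, which conjugate foreign compounds, had 3 of 62 called, all higher (*ugt-10*, *ugt-32* and *ugt-9*). Of 128 collagens, 62 cytochromes P450, 35 glutathione S-transferases, 121 *fbxa* F-box genes and 23 *pals* genes, 1 each was called, all higher. Of 190 nuclear hormone receptors 0 were called (edgeR), with 19 at an unadjusted p under 0.05, 0 by limma-voom and 1 by DESeq2. Histones had 3 of 23 called, all lower (*his-38*, *his-40* and *his-60*). Serpentine receptors had 4 of 70 called, all higher, and 2 of 69 without library series C.

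The mitochondrial stress genes that the study follows were not called between the types. HSP-6, the mitochondrial HSP70 whose induction marks the mitochondrial unfolded protein response (UPRmt), had a gene level of 497 to 880 CPM in the N2-like lines (median 639) and 464 to 928 CPM in the CB4856-like lines (median 643). For *hsp-6* the difference was 0.01 on the log2 scale (SE 0.05, adjusted p = 0.958). Between the parental strains it was 0.59 (SE 0.13, adjusted p = 0.0112), and the 2 differences differed (interaction -0.52, adjusted p = 0.0287). For the chaperonin gene *hsp-60* the difference was 0.04 in the lines and 0.61 in the parents, and the interaction was not called (-0.52, adjusted p = 0.172). For *fipp-1*, which encodes a factor of mRNA polyadenylation, the difference in the lines was -0.03 (SE 0.03, adjusted p = 0.779). Of 16 UPRmt genes tested 0 were called, with 0 at an unadjusted p under 0.05. Of 31 nuclear genes of oxidative phosphorylation and 34 of the mitochondrial ribosome 0 were called, with 0 and 1 at that level, and limma-voom and DESeq2 called 0 in each of these 3 lists. Over all 15794 genes tested 1.72% were called by edgeR, and 1837 were at that unadjusted level. In lists this small 0 called is near the overall share.

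Stage and sex genes were examined because they move strongly between libraries of L4 worms. The molting score, a mean z score over listed genes, was 0.03 ± 0.63 in the N2-like lines (SD, n = 35) and -0.02 ± 0.60 in the CB4856-like lines (n = 50). The oocyte score was -0.02 ± 0.95 and -0.05 ± 0.93, and the sperm score 0.12 ± 0.84 and -0.14 ± 0.97. Between the types of line all 3 overlapped over nearly their whole range. In the parental strains the oocyte score was 1.11 ± 1.42 in N2 and -0.22 ± 0.52 in CB4856. The sperm score was 0.73 ± 0.96 in N2 and 0.04 ± 0.47 in CB4856. Differences between the parental strains may therefore hold stage as well as strain, and the 2 cannot be told apart. Of 21 molting, 15 oocyte and 5 male genes tested 0 were called by edgeR, limma-voom or DESeq2, with 1, 0 and 0 at an unadjusted p under 0.05. Of 35 sperm genes 2 were called, *msp-53* and *msp-19*, both on chromosome IV and lower in the CB4856-like lines. Over all genes tested 1.72% were called, so 0 called in such short lists is near that share.

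A single line held many of the large distant values. QX571, a CB4856-like line, had the highest CPM of all 85 lines at 21 of the 128 distant genes called, and at 9 of these it was at least 3-fold above the next line. *Y73B3A.18* had 1386 CPM in QX571 and at most 35.7 CPM in any other line, and its log2 fold change went from 1.198 to 0.03 without QX571 (adjusted p = 0.914). *C14C6.12* had 131 CPM in QX571 and at most 3.84 CPM elsewhere, and went from 3.04 to 0.60 (adjusted p = 0.577). Without QX571, 114 of the 128 were called and 14 were not, among them *K10C9.9*, *C45B11.7*, *K07D4.1* and the chitinase-like *chil-7*. The fit without QX571 called 137 distant genes in all, and this alternative was chosen after the data were seen.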

How the data were processed

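RNA-seq of 85 RIAILs, N2 and CB4856 on Dox was used as deposited. Per the submitters' processing notes, FastQC, STAR 2.73a and the WBcel235 genome were used. The table deposited by the authors holds raw read counts of 46904 genes in 95 libraries. Neither the counting tool nor whether it used strand is stated in these sources. Every sample column was used (unused columns: 0). CPM is the count over the column total times 1000000. Types of line were compared by the quasi-likelihood test of edgeR 4.0.16 in R 4.3.3, after filterByExpr and TMM scaling, at a Benjamini-Hochberg adjusted p under 0.05 over all genes tested, without the parental libraries. *R07C12.2* was left untested. CB4856 against N2, and the interaction between both contrasts, were fitted in the same way. limma 3.58.1 (voom), DESeq2 1.42.0, other scaling, filters, covariates and sets of lines were alternatives. The titles give numbered batches shared by N2 and CB4856, taken to pair them. Deviations of same-numbered libraries correlated at 0.685, 0.195, 0.0872 and -0.511.

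Named genes were the marker, the 3 tested genes nearest on each side, the 10 local, 5 other chromosome IV and 10 distant genes with the smallest p at a mean of 1 CPM or more, *hsp-6*, *hsp-60* and *fipp-1*. Others were chosen after their values were seen. Members and lists were chosen with earlier results of these data known. Fits were tested on simulated counts.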

Additional observations from a re-analysis of the deposited data

Results flagged for a closer look

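Single parental libraries stood apart at 9 of the named values. In N2 replicate 4 *K08D10.14* was at 18.03 CPM, with the other 3 libraries at 8.53 to 9.49, and *Y19D10B.1* at 0.0873 with the others at 0. In N2 replicate 1 *scrm-5* was at 4.22 CPM, against 16.46 to 17.7. In CB4856 replicate 1 *R07C12.2* was at 0.0432 CPM (1 count, the others at 0), *Y46C8AR.3* at 50.9 (others 11.4 to 22.8) and *C01B10.1* at 82.6 (others 48.1 to 59.3). In CB4856 replicate 5 *C18H2.2* was at 7.53 CPM (others 5.11 to 5.98) and *Y19D10B.4* at 20.7 (others 0.0863 to 4.70), and in replicate 3 *K08D10.14* was at 0.0429 (1 count, others at 0). Of 58 groups examined, chance marks about 1 in 20.

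For 2 named genes the difference between the types of line was of another size than that between the parental strains. For *C36A4.11* the interaction was 0.88 on the log2 scale (adjusted p = 0.0349), from 0.72 between the types and -0.12 between CB4856 and N2. For *hsp-6* it was -0.52 (adjusted p = 0.0287), from 0.01 and 0.59.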

How the results depend on the processing

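Stage scores as covariates raised the number of genes called from 272 to 1112 in all, to 98 within 1 Mb, 294 further along chromosome IV, 720 on other chromosomes and 101 in the lists. The sperm and oocyte lists enter those scores. Library series as a factor raised other chromosomes to 211. Leaving out library series C, added after the data were seen, gave 182 in all, 50 within 1 Mb, 57 further along chromosome IV and 75 on other chromosomes, from 74 lines in place of 85. Under the other settings, counts for the types ran from 231 (without QX501 and QX505) to 372 (library series as a factor). Lines with concordant flanking types gave 328. The parental count was 1652 with the replicate block, and 1566 in the same 8 libraries without it, so the smaller set of libraries and not the block lowered it. Leaving out each library gave 1570 to 4604. Of 379 alternative values for 28 named genes, 374 kept call and direction, 5 lost the call (own-chromosome type, chromosome IV genes) and 0 reversed. Depth limits the near-silent genes, where 1 to 4 counts set the ratio.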
